A study of Mus musculus with 5 samples.

Results

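miR-223, both arms of miR-142 and both arms of miR-342 are microRNAs (miRNAs) of the blood-forming lineage, and they made up 5 of the 217 miRNA assays measured in injured mouse muscle. They were chosen by assay name, as miRNAs of that lineage, with earlier results of these data known. On day 1 after injury miR-223 was 92.1-fold, miR-142-5p 34.7-fold and miR-142-3p 31.1-fold above uninjected muscle. miR-223 stayed raised through day 4 and both miR-142 arms through day 7. miR-342-5p met the criteria for a rise on days 3, 4 and 7, at 8.10-fold to 9.13-fold. miR-342-3p, which comes from the same precursor as miR-342-5p, met the criteria for a rise or a fall at none of the 5 time points.

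The tissue was the tibialis anterior, a hind limb muscle, of male C57BL/6J mice aged 4 to 6 months. Uninjected muscle was the baseline, and the other muscles were taken 1, 3, 4, 7 or 21 days after both hind limbs had received cardiotoxin into the anterior compartment (100 µl at 2.5 µM), with 4 mice at each time point. Cardiotoxin is a snake venom toxin that lyses muscle fibres and leaves the satellite cells able to rebuild them. There was no group injected with vehicle alone, so injury and injection cannot be told apart. RNA came from a piece of whole muscle, so more cells of a type and more RNA per cell cannot be told apart.

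Each miRNA was measured by TaqMan real-time PCR as a threshold cycle (Ct), where a lower Ct means more RNA and 1 cycle is taken as 1 unit of log2. Each assay had 4 Ct values in each of the 6 arms, and the same baseline values served all 5 comparisons. The files do not name the mouse behind a value. The p-values rest on the spread of values within arms, pooled over the 6 arms and moderated across miRNAs. All 120 member values were under Ct 35, the limit used for detection, and the highest was 32.44.

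Injured muscle is entered first by neutrophils and then by monocytes and macrophages, which clear dead fibres before and while new ones form. miR-223 is known from the myeloid branch of blood formation and is abundant in neutrophils, where it restrains their activation. miR-142 is made in blood cells of nearly all lineages and is widely used as a mark of them. miR-342 lies within Evl, a gene for an actin regulator, and both of its arms are known from lymphoid and myeloid cells, miR-342-5p in particular from macrophages.

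The mature sequences show that the 5 members are 5 different regulators, even where they share a hairpin. They are given 5′ to 3′ from RefSeq (mouse build GRCm38.p6), in which all 5 were found, with the seed that pairs with target RNAs, bases 2 to 8, in capitals. The array's older name miR-223 carries no arm, and the sequence shown for it is the 3p strand.
miR-223: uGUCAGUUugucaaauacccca
miR-142-3p: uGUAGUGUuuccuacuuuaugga
miR-142-5p: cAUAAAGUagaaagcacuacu
miR-342-3p: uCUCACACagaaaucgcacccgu
miR-342-5p: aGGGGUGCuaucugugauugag
No seed was shared between members, and no other mature miRNA in the RefSeq table carried any of these seeds.

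The Mir142 and Mir342 hairpins are shown because each gives 2 members. Capitals mark the mature 5p arm, which comes first, and the mature 3p arm.
Mir142: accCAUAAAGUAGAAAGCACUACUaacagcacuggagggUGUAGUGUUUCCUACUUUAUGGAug
Mir342: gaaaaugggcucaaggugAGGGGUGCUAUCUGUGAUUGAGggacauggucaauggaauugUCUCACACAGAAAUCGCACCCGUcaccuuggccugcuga
Mir142 lies at chr11:87756864-87756927 on the plus strand, is overlapped by Mir142b, and has Tspoap1 as its nearest coding gene, 1267 bases away. Mir342 lies at chr12:108658620-108658718 on the plus strand, within the span of Evl, whose exons were not analysed here. Mir223 lies at chrX:96242817-96242926 on the plus strand, overlaps the long non-coding RNA F630028O10Rik, and is 4275 bases from the nearest coding gene, Vsig4.

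Changes were read on 2 scales, because the arms differed in the RNAs that might serve as a standard. The first sets each value against the median change of 205 miRNAs that were under Ct 35 in every well. The second sets it against U6, the small nuclear RNA marked in the files as endogenous control. U6 itself went from a mean Ct of 14.84 at baseline to 12.54 on day 1, so a log2 change was lower on the U6 scale by 1.91, 1.12, 0.67, 0.09 and 0.12 on days 1, 3, 4, 7 and 21. A member is said to have risen or fallen only where limma's adjusted p (Benjamini-Hochberg over all miRNAs tested) was under 0.05 on both scales. Log2 changes are on the median-miRNA scale, with the standard error (SE) of the fit, unless U6 is named.

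The fibre miRNAs miR-1 and miR-133a were abundant at baseline, with mean Ct values of 12.92 ± 0.31 and 9.35 ± 0.17 (SD, n = 4) as markers of the labelled tissue. They fell, with log2 changes of -4.85 and -3.06 on day 1, -6.20 and -5.87 on day 3, and -1.44 and -1.27 on day 21. Other markers also moved while the members were high. Of 5 epithelial miRNAs tested, 4 rose on both scales on days 1 and 3, with a median log2 change of 4.60 over the 5 on day 1. The fifth, miR-203, fell on days 1, 3, 4 and 7, with log2 changes of -0.50, -1.19, -1.17 and -0.91 against the median miRNA, although it was higher against Y1 on days 1, 3 and 7. Both endothelial miRNAs fell on days 3, 4 and 7. Of 5 miRNAs listed for fibroblasts, 3 fell on day 1, although all 3 were higher against Y1, another control RNA. On day 7, miR-199a-5p (2.24) and miR-214 (1.23) rose, while miR-143 (-2.39) and miR-145 (-3.19) fell. miR-143 and miR-145 are also miRNAs of the vessel wall. The part of these shifts in the members' changes was not tested.

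miR-223 showed the largest change of the members, on day 1. Its 4 Ct values at baseline were 18.69, 18.78, 18.74 and 18.72. On day 1 they were 11.93, 11.87, 11.47 and 12.02. Every day 1 value was thus more than 6 cycles below every baseline value. The values were 14.59, 14.23, 14.04 and 14.28 on day 3 and 15.58, 15.64, 15.84 and 15.51 on day 4. They were 16.67, 16.88, 16.87 and 16.73 on day 7 and 18.45, 18.69, 18.61 and 18.59 on day 21. In raw Ct no arm overlapped another until day 21, whose values came back to those of uninjected muscle.

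The day 1 change of miR-223 was a log2 of 6.53 ± 0.12 (SE, n = 4 per arm), or 92.1-fold, with adjusted p = 9.70e-22 from limma. On the U6 scale the change was 4.62 (adjusted p = 7.23e-11, limma). It ranked 3 of 211 miRNAs tested. miR-223 was still raised 13.4-fold on day 3 and 4.43-fold on day 4, with U6-scale changes of 2.62 (adjusted p = 2.25e-06, limma) and 1.47 (adjusted p = 0.00266, limma). On day 7 it stood at 0.75 ± 0.12 (adjusted p = 3.99e-06, limma) against the median miRNA but at 0.66 (adjusted p = 0.166, limma) on the U6 scale, where its values overlapped those of the baseline, and against snoRNA135, another control RNA, it was below baseline by 0.42. On day 21 its level was 0.999-fold that of the baseline (adjusted p = 0.992, limma) on the median-miRNA scale. Other standards put this change on either side of the baseline, at 1.07 against Y1 (adjusted p = 0.00251, limma), -1.14 against snoRNA135 (adjusted p = 1.10e-05) and -0.41 against the median Ct of the miRNAs at the same position (adjusted p = 0.0062).

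miR-223 came down from day 1 in steps. It fell by 2.79 on the log2 scale between days 1 and 3 and by 1.59 between days 3 and 4 (U6-scale adjusted p = 0.000285 and 0.0462, limma). Few miRNAs fell over the second of these steps: 4 of 216 tested, or 1.85%, were lower on both scales, against 13.1% from day 1 to day 3. From day 4 to day 7 and from day 7 to day 21 it went down by 1.39 and 0.75 against the median miRNA, which did not pass on the U6 scale (adjusted p = 0.179 and 0.147, limma). The background of miRNAs lower on both scales was 0.922% and 14.4% for these 2 steps. The means of miR-223 had the order day 1, day 3, day 4, day 7, baseline and day 21 on both scales. Baseline and day 21 could not be told apart on either of the 2 scales. On the U6 scale neither could day 4 and day 7, or day 7 and baseline (adjusted p = 0.179 and 0.166, limma).

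miR-142-3p, made in blood cells of nearly all lineages, also rose on day 1 and was still raised on day 7. Its baseline Ct values were 21.46, 20.89, 20.14 and 20.37, and those of day 1 were 14.97, 15.41, 15.32 and 15.79. On day 3 they were 15.60, 16.72, 15.60 and 15.98, and on day 4 they were 16.31, 16.73, 16.58 and 16.69. Day 3 overlapped both day 1 and day 4, and each of these 3 arms lay wholly below the baseline. On day 7 the values were 17.54, 17.18, 17.05 and 17.58, and on day 21 they were 19.33, 19.66, 19.62 and 19.99. Even on day 21 all 4 raw values lay below the lowest baseline value of 20.14.

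On the log2 scale miR-142-3p rose by 4.96 ± 0.23 (SE) on day 1, or 31.1-fold (adjusted p = 4.40e-14, limma). It was raised 16.4-fold on day 3, 9.15-fold on day 4 and 4.55-fold on day 7. The changes on the U6 scale were 3.05, 2.91, 2.52 and 2.09 on these days, and the last had an adjusted p of 0.00145 in limma. On day 21 miR-142-3p was 1.89-fold higher against the median miRNA (adjusted p = 0.00158, limma) but did not pass on the U6 scale, at 0.80 (adjusted p = 0.251, limma), and against snoRNA135 it lay below baseline by 0.22. Each of the 4 steps down from day 1 to day 21 passed against the median miRNA, by 0.93, 0.84, 1.01 and 1.27, and none passed on the U6 scale.

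miR-142-5p, the other arm, followed the same course. Its baseline Ct values were 28.06, 27.80, 27.07 and 27.18, and those of day 1 were 21.94, 22.25, 21.65 and 22.26. They were 22.72, 23.15, 22.45 and 23.01 on day 3 and 23.30, 23.35, 23.68 and 23.49 on day 4. No value of these 3 days came near the baseline range. On day 7 they were 24.41, 24.18, 24.13 and 24.18, and on day 21 they were 26.35, 26.85, 26.33 and 26.82. Day 21 again lay just below the lowest baseline value, 27.07.

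miR-142-5p rose 34.7-fold on day 1, a log2 change of 5.12 ± 0.15 (SE), 15.9-fold on day 3, 8.75-fold on day 4 and 4.32-fold on day 7. All 4 changes passed on the U6 scale, the last at 2.02 (adjusted p = 0.000393, limma). On day 21 it was 1.73-fold higher against the median miRNA (adjusted p = 8.83e-05, limma) and 0.67 on the U6 scale (adjusted p = 0.254, limma), while quantile scaling put it 0.05 below baseline and snoRNA135 0.35 below. Between days 7 and 21 it fell by 1.32 on the log2 scale (U6-scale adjusted p = 0.0275, limma). The means of both arms of miR-142 had the order day 1, day 3, day 4, day 7, day 21 and baseline, in which all neighbours differed against the median miRNA. On the U6 scale the order was the same, but of these neighbours only days 7 and 21 of miR-142-5p passed. The other neighbours of miR-142-5p had adjusted p from 0.254 to 0.721 (limma).

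**Figure D1:**
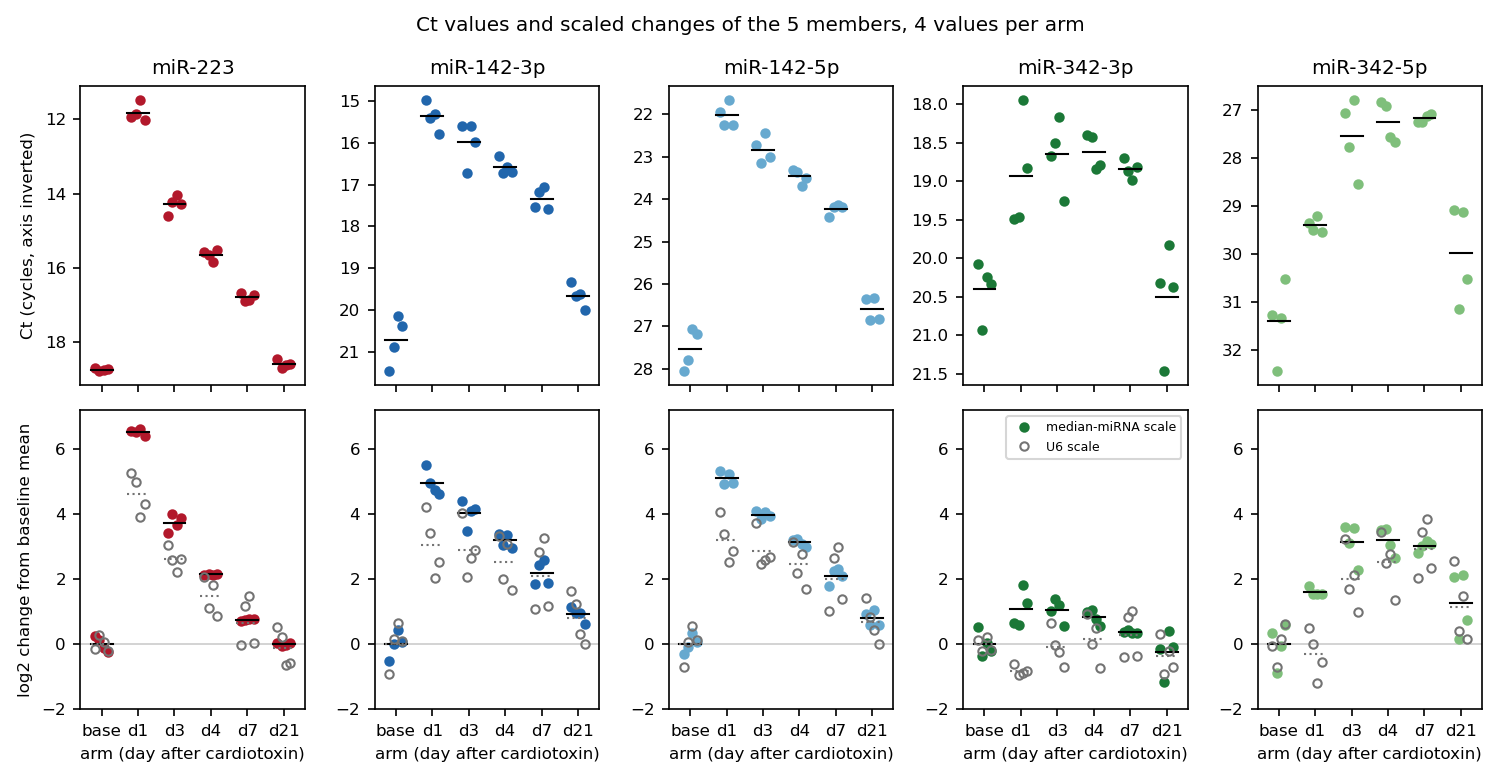
Top row, the 4 Ct values of each member (points) and their mean (line) at baseline (base) and 1 to 21 days after cardiotoxin (d1 to d21), on inverted axes that differ between members. Bottom row, the log2 change from the baseline mean against the median miRNA (filled points, solid line for the mean) and against U6 (open points, dotted line). miR-223 and both miR-142 arms have their highest mean on day 1, miR-342-5p is high on days 3 to 7, and miR-342-3p lies on different sides of 0 on the 2 scales on day 1.

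miR-342-3p gave small differences, and their direction depended on the standard. Its baseline Ct values were 20.08, 20.93, 20.25 and 20.33, and those of day 1 were 19.49, 19.47, 17.94 and 18.83. They were 18.67, 18.51, 18.17 and 19.26 on day 3 and 18.40, 18.43, 18.84 and 18.79 on day 4. In raw Ct these 3 arms lay below the baseline. Day 7 gave 18.70, 18.87, 18.98 and 18.81, and day 21 gave 20.32, 21.47, 19.83 and 20.38. The day 21 values spread across the whole baseline range and beyond it at both ends.

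Against the median miRNA miR-342-3p was 2.11-fold higher on day 1 (adjusted p = 0.00182, limma), 2.05-fold on day 3 (adjusted p = 0.00246) and 1.79-fold on day 4 (adjusted p = 0.0109). On the U6 scale the same changes were log2 -0.83 (adjusted p = 0.0741, limma), -0.09 (adjusted p = 0.852) and 0.17 (adjusted p = 0.723). Against snoRNA135 they were -0.27, -0.74 and -0.69. The change on day 4 missed the threshold without the second baseline value, at 0.69 (adjusted p = 0.0519, limma). On days 7 and 21 neither scale passed, with changes of 0.37 ± 0.29 (SE) and -0.25 ± 0.29 against the median miRNA. Other standards gave passing changes in both directions. On day 7 miR-342-3p was at -0.81 against snoRNA135, but at 1.02 against snoRNA202, 1.47 against Y1, 0.91 with quantile scaling and 1.56 in raw Ct. On day 21 it was at 0.82 against Y1, but at -1.39 against snoRNA135 and -0.66 against the median Ct. No neighbours in the order of its 6 arms passed the test, and the order itself changed between the scales, with day 1 highest against the median miRNA and lowest against U6.

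miR-342-5p, the arm known from macrophages, met the criteria for a rise on days 3, 4 and 7. Its baseline Ct values were 31.26, 32.44, 31.33 and 30.52, and those of day 1 were 29.36, 29.51, 29.22 and 29.54. They were 27.07, 27.77, 26.79 and 28.54 on day 3 and 26.85, 26.92, 27.56 and 27.68 on day 4. Each day 3 and day 4 value was below every day 1 value. Day 7 gave 27.25, 27.25, 27.13 and 27.08, and day 21 gave 29.08, 31.15, 29.12 and 30.53. On day 21 the values fell into a low pair and a high pair, and the high pair lay at the baseline's lower edge or within it.

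On day 1 miR-342-5p was 3.02-fold higher against the median miRNA (adjusted p = 0.000731, limma) but at -0.31 on the U6 scale (adjusted p = 0.608, limma). It then rose from day 1 to day 3 by 1.54 ± 0.39 (SE) on the log2 scale (adjusted p = 0.00108, and 0.000963 on the U6 scale, limma), a step in which 31% of miRNAs tested were higher on both scales. Against Y1 this step was 0.13 and did not pass (adjusted p = 0.768, limma). Against baseline it was raised 8.80-fold on day 3, 9.13-fold on day 4 and 8.10-fold on day 7. The U6-scale changes were 2.02, 2.52 and 2.93 (adjusted p = 0.00165, 0.000169 and 2.55e-05, limma). The steps from day 3 to day 4 and from day 4 to day 7, at 0.05 and -0.17, did not pass, and against Y1 the first of them was -0.97. Between days 7 and 21 it fell by 1.75 on the log2 scale (U6-scale adjusted p = 0.0136, limma), while with quantile scaling the change was -0.72 and did not pass (adjusted p = 0.0655). On day 21 it stood at 1.27 ± 0.39 (SE) against the median miRNA (adjusted p = 0.00601, limma) and 1.15 on the U6 scale (adjusted p = 0.0952), and its values overlapped those of the baseline on both scales.

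Among the 5 members, the number that rose on both scales was 3 on day 1, 4 on day 3, 4 on day 4, 3 on day 7 and 0 on day 21. The corresponding share of all miRNAs tested was 9%, 19.3%, 25.4%, 31.5% and 22.1%. On days 1, 3, 4 and 7 the members' share was thus above that of all miRNAs, and on day 21 it was below it. Against the median miRNA alone, 5, 5, 5, 4 and 3 members were higher on days 1, 3, 4, 7 and 21, where 41.2%, 38.7%, 43.2%, 40.4% and 35.7% of all miRNAs were. With 5 members chosen for their lineage, these shares are a description.

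**Figure D2:**
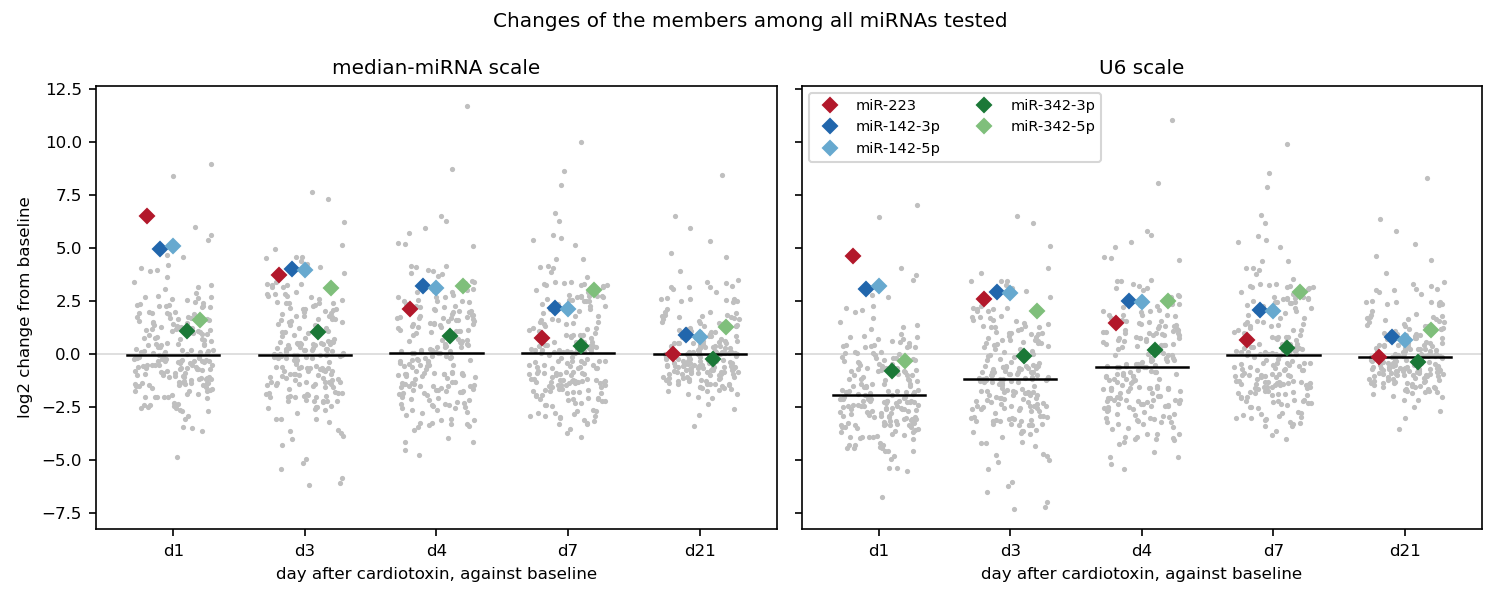
Log2 change from baseline of every miRNA tested (grey points), with the median of all (black line) and the 5 members (coloured diamonds), against the median miRNA (left) and against U6 (right), by day after cardiotoxin. On day 1 miR-223 ranks 3, miR-142-5p 7 and miR-142-3p 8 of 211 miRNAs, and by day 21 miR-223 lies at rank 107 of 213.

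A ratio between 2 members needs no standard, so it shows whether they changed unequally whichever RNA is used for scaling. Ratios were taken between values at the same position in the files. That such values come from the same mouse is assumed, since the files do not name it. With miR-142-3p as the reference at each position, 97.6%, 93.4%, 89.6%, 84.4% and 74.1% of all miRNAs passed in either direction on days 1, 3, 4, 7 and 21. Any change of the reference itself enters these shares. The same shares with miR-342-3p as the reference were 74.8%, 77.3%, 74.1%, 74.1% and 46.2%.

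The 2 arms of miR-142 could not be told apart in their time course. The log2 ratio of miR-142-5p over miR-142-3p changed by 0.16, -0.05, -0.07, -0.08 and -0.13 on days 1, 3, 4, 7 and 21, each with an SE of 0.20. The lowest adjusted p was 0.437 (limma). The 95% interval for day 1 ran from -0.26 to 0.58, and that for day 21 from -0.54 to 0.29, so a difference of up to about that size was not detectable with these values. Over the 24 positions, the deviations of the 2 arms from their arm means had a correlation of 0.79 in raw Ct, against -0.05 for miR-223 with miR-142-3p, as a description of values paired by position.

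The 2 arms of miR-342 did change unequally. The log2 ratio of miR-342-5p over miR-342-3p went up by 2.10 ± 0.35 (SE) on day 3, by 2.35 on day 4 and by 2.65 on day 7, which is a 4.29-fold, a 5.11-fold and a 6.29-fold shift towards the 5p arm. The adjusted p for day 7 was 1.01e-07 (limma). The ratios by position in these 3 arms lay wholly above the baseline's. On day 1 the shift was 0.52 ± 0.35 (adjusted p = 0.181, limma), with a 95% interval from -0.20 to 1.23, and it passed without the third day 1 value, at 0.78 (adjusted p = 0.0428). On day 21 the ratio was still 2.87-fold above baseline (adjusted p = 0.00064, limma), but the difference came to less than 2 SE when the values were not paired by position. miR-342-5p gave the highest Ct values of the members, with a within-arm SD of 0.65 cycles.

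miR-223 and miR-142-3p also parted. The log2 ratio of miR-223 over miR-142-3p was 1.57 ± 0.30 (SE) above baseline on day 1 (2.96-fold, adjusted p = 3.71e-05, limma), with ratios by position from 3.04 to 3.85 against 1.40 to 2.77 at baseline. On day 3 it was back at -0.29 (adjusted p = 0.354, limma, 95% interval from -0.92 to 0.34). On days 4 and 7 it was lower than at baseline, with changes of -1.05 (adjusted p = 0.00277, limma) and -1.43 (adjusted p = 0.000152), with no overlap of the ratios by position. On day 21 the ratio stood at -0.92 (adjusted p = 0.00945, limma), where the highest ratio by position met the lowest of the baseline at 1.40. Without the first baseline value the day 21 change was -0.66 (adjusted p = 0.0547, limma).

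miR-342-3p was lower relative to miR-142-3p at each time point than at baseline. The log2 ratio of miR-342-3p over miR-142-3p was -3.88 ± 0.43 (SE) on day 1, or 14.7-fold lower than at baseline. It was -3.00 on day 3, -2.36 on day 4 and -1.82 on day 7, and the ratios by position of these 4 days did not overlap the baseline. On day 21 it was -1.17 (adjusted p = 0.0176, limma), which missed the threshold without the second day 21 value, at -0.85 (adjusted p = 0.0864), and without the first baseline value, at -0.81 (adjusted p = 0.0917).

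**Figure D3:**
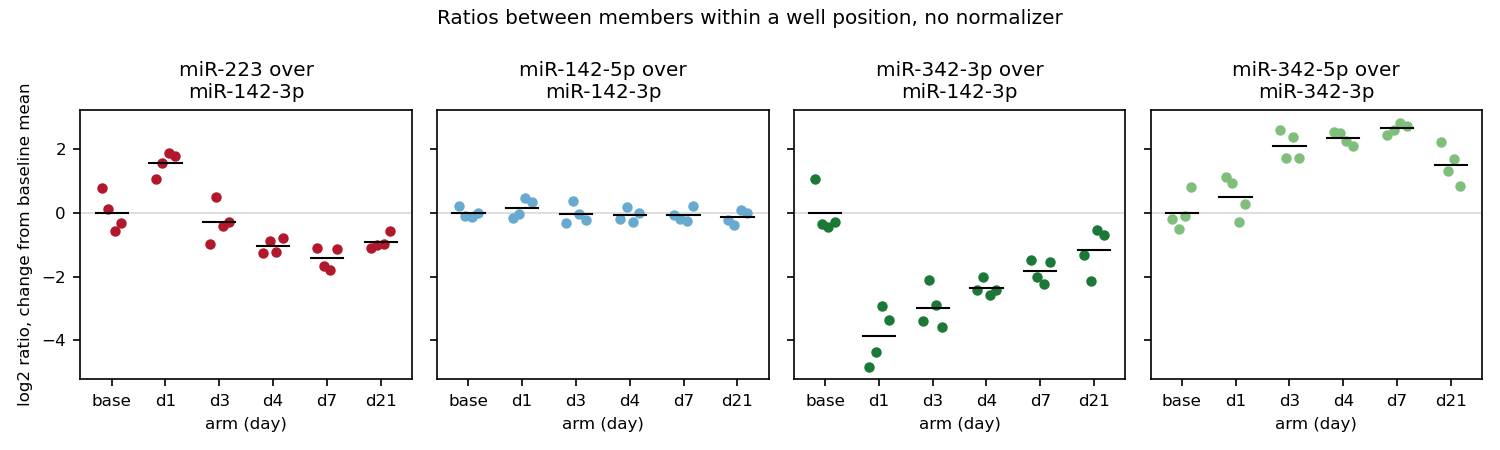
Log2 ratio between 2 members at the same position in the files, as change from the baseline mean, for each of the 4 values (points) and their mean (line) at baseline and 1 to 21 days after cardiotoxin. miR-142-5p over miR-142-3p stays near 0, miR-342-5p over miR-342-3p reaches 2.65 on day 7, and miR-223 over miR-142-3p goes from 1.57 on day 1 to -1.43 on day 7.

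The precision differed between members. The within-arm SD of raw Ct was 0.16 cycles for miR-223, the second lowest of the 205 miRNAs under Ct 35 in every well, whose median was 0.30. It was 0.39 for miR-142-3p, 0.30 for miR-142-5p, 0.49 for miR-342-3p and 0.65 for miR-342-5p. U6 varied by 0.65 within arms, so the SD of miR-223 went to 0.55 on the U6 scale. Pooled over arms, the SD of each of the 5 members was larger on the U6 scale than against the median miRNA.

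Over the 6 arm means the patterns of the 2 miR-142 arms had a Pearson correlation of 0.999 against the median miRNA and 0.997 against U6. miR-223 had 0.93 and 0.82 with miR-142-3p, and 0.27 and -0.28 with miR-342-5p. With miR-342-3p the sign turned between the scales, from 0.87 to -0.62 for miR-223, from 0.94 to -0.19 for miR-142-3p and from 0.94 to -0.24 for miR-142-5p. The 2 miR-342 arms had 0.60 and 0.76. These are descriptions over 6 points that come from the same arms and share their standard.

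The miRNAs outside the group with the closest patterns were found by the correlation of arm means against the median miRNA, among 205 others. For miR-223 they were miR-106b (0.992), miR-682 (0.985) and miR-467b (0.984), and on the U6 scale the correlation with miR-106b turned to -0.50 while those of the other two were 0.94 and 0.82. For both arms of miR-142 they were miR-15b, miR-467d and miR-467c, with correlations from 0.986 to 0.990 and from 0.919 to 0.980 against U6. miR-467c and miR-467d rose on both scales on days 1, 3, 4 and 7, as miR-142 did. For miR-342-3p they were miR-20b, miR-200b and miR-20a (0.990, 0.989 and 0.989), which had 0.50, 0.09 and 0.67 against U6. For miR-342-5p they were miR-335-3p (0.984), miR-449a (0.968) and miR-182 (0.953), with 0.986, 0.889 and 0.954 against U6. miR-335-3p and miR-182 rose on both scales on days 3, 4 and 7, the days on which miR-342-5p rose, and miR-335-3p also rose on day 21, at 1.77 (U6-scale adjusted p = 0.00718, limma), when miR-342-5p did not pass. Ranked on the U6 scale, the closest was miR-200c for miR-223, miR-200a for both miR-142 arms, miR-199a-5p for miR-342-3p and miR-674 for miR-342-5p. Ranked by root mean square difference between the changes, it was miR-141 for miR-223 and both miR-142 arms. By that measure it was miR-32 for miR-342-3p and miR-182 for miR-342-5p. miR-200a, miR-200c and miR-141 are among the epithelial miRNAs.

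Other miRNAs known from myeloid and lymphoid cells moved in both directions. Of 16 listed, 12 were measured and 11 tested. The untested one, miR-147, which macrophages induce on activation, was under Ct 35 in only 2 of 4 baseline values, at 36.96, 36.55, 33.74 and 34.91. Its Ct values were 25.57, 26.04, 25.81 and 26.21 on day 1, from 27.15 to 28.56 on day 3, from 28.09 to 29.72 on day 4, from 29.06 to 29.71 on day 7 and from 30.86 to 32.91 on day 21. miR-147 was thus lower in Ct than at baseline in every value after injury and lowest on day 1, as miR-223 and miR-142 were. Of the 11 tested, none rose and none fell on both scales on day 1, when 5 were higher against the median miRNA and 6 were lower against U6. On that day miR-146a, a brake on innate immune signalling, stood at 2.26 against the median miRNA and 0.35 against U6 (adjusted p = 0.476, limma). On day 3, 2 rose and 2 fell. miR-21, which many cell types raise on injury, rose by 2.83, and miR-511, which lies in the gene of the macrophage mannose receptor, rose by 2.86. miR-150, a miRNA of mature lymphocytes, fell by 1.32 on the log2 scale, although against Y1 it was at 0.005. miR-155, which is induced in activated immune cells, fell by 1.37.

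On day 4, 2 of the 11 rose and 6 fell, with miR-21 at 2.21, miR-511 at 1.68, miR-155 at -1.41 and miR-150 at -1.84. On day 7, 1 rose, miR-21 at 1.64, and 4 fell, of which miR-150 (-2.10), miR-146b (-1.28) and miR-155 (-1.21) changed most. None passed on both scales on day 21. Over all miRNAs tested, 19 rose and 82 fell of 211 on day 1. The counts were 41 and 87 of 212 on day 3, and 54 and 88 of 213 on day 4. They were 67 and 76 of 213 on day 7, and 47 and 41 of 213 on day 21. The median log2 change of the 11 was 0.42, -0.21, -0.90, -0.64 and -0.32 on days 1, 3, 4, 7 and 21, against -0.04, -0.05, 0.06, 0.07 and -0.00 over all miRNAs tested. Of 3 red cell miRNAs listed, 2 were measured. miR-486, which is also listed for muscle, fell on days 1, 3 and 4, with a log2 change of -3.64 on day 1. The red cell miRNA miR-451 stood at 1.58 on day 1 against the median miRNA and -0.33 against U6 (adjusted p = 0.593, limma), and it fell by 0.92 on the log2 scale on day 4 and by 2.09 on day 7. While miR-142 was still raised on day 7, miR-150 and miR-451 were thus below their baseline levels.

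**Figure D4:**
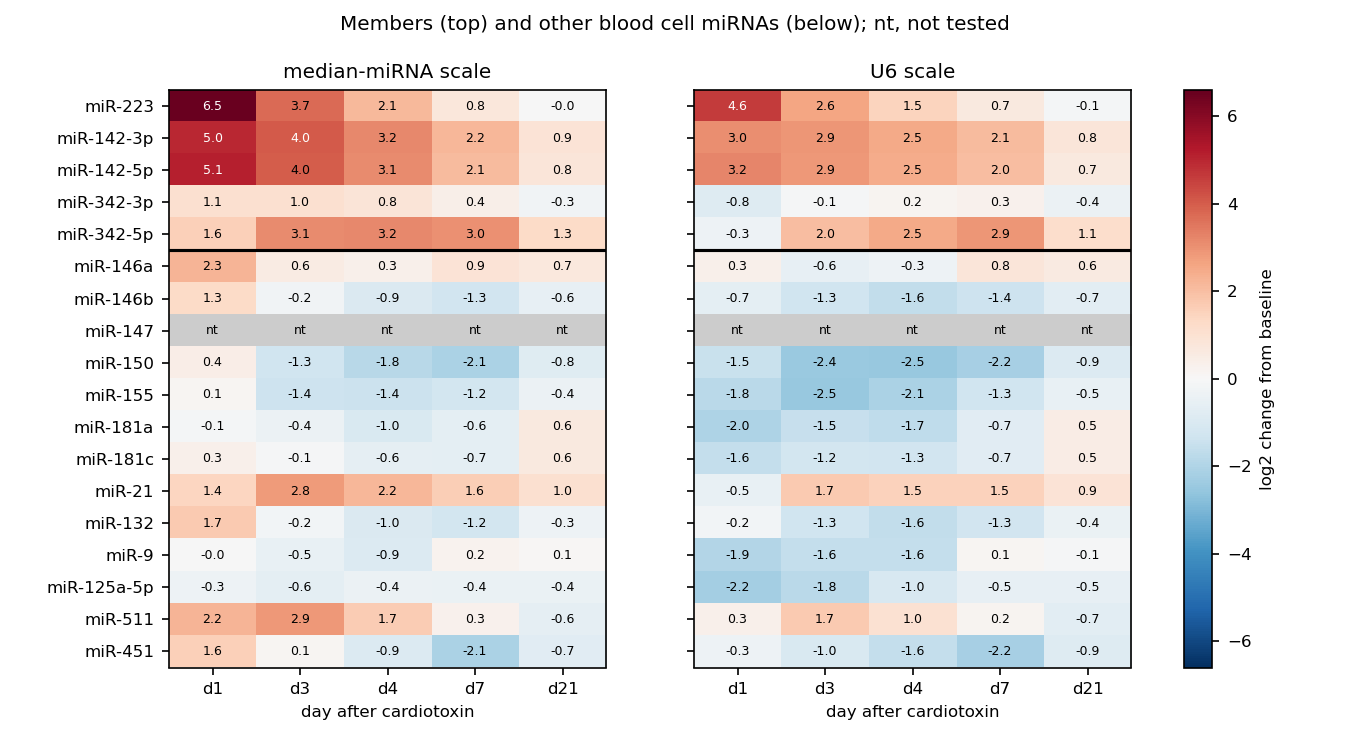
Log2 change from baseline of the 5 members (above the line) and of the other listed blood cell miRNAs measured (below it), by day after cardiotoxin, against the median miRNA (left) and against U6 (right). miR-486, listed for red cells and for muscle, is left out. Red is higher and blue lower than baseline, and nt marks a miRNA not tested. The members miR-223, miR-142-3p and miR-142-5p are red on days 1 to 7 on both scales, while miR-150 and miR-155 are blue on days 3 to 7.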

How the data were processed

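The authors deposited raw Ct values of TaqMan assays run for 40 cycles, with no normalization; RNA was used with an integrity number over 9, per the labels' protocols. The labels do not state the Ct threshold, the RNA input or the miRNA release. Each file held 222 assays (217 miRNAs and 5 control RNAs), and the baseline column, identical in all 5 files, was used once, which left 5328 values in 6 arms.

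A miRNA was tested in a comparison when it was under Ct 35 in at least 3 of 4 values of both arms, and values at 40 were left out. All arms entered a single limma fit (version 3.58.1, R 4.3.3), two-sided, with Benjamini-Hochberg adjustment over the miRNAs tested, for all 15 pairs of arms. Ratios were fitted with 1 member as the reference at each position in the files. The fits were tested on simulated data.

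The members, the lists and the naming rule were chosen with earlier results of these data known. The text names the members, the 3 miRNAs closest to each in pattern, listed blood cell miRNAs that passed on both scales (at most 4 per time point by size), control RNAs that turn a call, and miR-1 and miR-133a. miR-146a and miR-451 on day 1, miR-147 and miR-203 were named after their values were seen. Alternatives were other scales, Ct limits, fits and left-out values. The number of values limits the precision.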

Additional observations from a re-analysis of the deposited data

Results flagged for a closer look

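Of 54 groups of 4 values, 2 had a value far from the others, by a gap above Dixon's critical value, and chance gives about 1 in 20 such groups. For miR-342-5p on day 1 the highest value, against the median miRNA, was separated by 0.96 of the range, because the other three values nearly coincided. For the ratio of miR-342-3p over miR-142-3p at baseline the highest value was separated by 0.899 of the range. That value is the first of the baseline, without which the day 21 changes of this ratio and of miR-223 over miR-142-3p missed the threshold.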

How the results depend on the processing

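The standard was the choice that mattered most. Members higher than baseline numbered 3 instead of 5 on day 1 against U6 or snoRNA135. On day 21 they numbered 3 against the median miRNA, 0 against U6 or snoRNA135, 1 against U87, the median Ct or with a 2-fold minimum, and 5 against Y1. By an exact permutation test against the median miRNA, miR-342-5p did not pass on day 21 (adjusted p = 0.148). Members lower than baseline numbered 0 against the median miRNA, but 1 on day 3, 1 on day 4, 2 on day 7 and 2 on day 21 against snoRNA135, and 2 on day 21 against the median Ct. Among changes against baseline or between successive days that passed on 1 of the scales, direction turned against U6 for miR-342-3p at -0.83 on day 1 and -0.085 on day 3 and miR-342-5p at -0.31 on day 1, and the correlation of miR-223 with miR-106b turned to -0.50. From day 1 to day 7 miR-342-3p passed in opposite directions, at -0.72 (adjusted p = 0.026, limma) and at 1.10 against U6 (adjusted p = 0.0223). Direction also turned for miR-342-3p from day 1 to 4, 1 to 21 and 3 to 7, and for miR-342-5p from day 1 to 21. The steps of miR-342-3p from day 1 to 3, 3 to 4 and 4 to 7 and of miR-342-5p from day 4 to 7, which passed on neither scale, also changed sign, to 0.74, 0.25, 0.11 and 0.41. Against snoRNA135, miR-342-3p was at -0.27, -0.74, -0.69 and -0.81 on days 1, 3, 4 and 7, miR-223 at -0.42 on day 7, and miR-142-3p and miR-142-5p at -0.22 and -0.35 on day 21. Against Y1, miR-223 and miR-342-3p were at 1.07 and 0.82 on day 21, and miR-342-5p at -0.97 from day 3 to day 4. Quantile scaling put miR-142-5p at -0.048 on day 21 and miR-142-3p at 0.063 from day 1 to day 3. The cause of these shifts was not tested. Over the other settings and left-out values, no change that passed in either the main or the alternative fit turned direction. Direction was not counted for changes that passed in neither fit. Of all these changes, 398 of 400 against baseline and 318 of 320 between successive days kept their side of the threshold. The exceptions not given in the report were miR-342-5p on day 21 with only its 2 arms in the fit (adjusted p = 0.0546, limma) and miR-342-3p, which then passed from day 4 to day 7 and, without the third day 21 value, from day 7 to day 21. With 1 value left out, the day 21 ratios ranged from -1.11 to -0.66 for miR-223 over miR-142-3p and from -1.38 to -0.81 for miR-342-3p over miR-142-3p, and the day 1 ratio of miR-342-5p over miR-342-3p from 0.31 to 0.78. An exact permutation test of miR-223 over miR-142-3p on day 21 (-0.92) gave p = 0.0571, 2-sided, where the smallest p possible is 0.0286. Unpaired, the day 21 change of miR-342-5p over miR-342-3p was 1.52 ± 0.76 (SE). The labels give no replicate numbers; with the position in the file as a replicate block, the members higher than baseline still numbered 5, 5, 5, 4 and 3. Each arm has 4 values, which limits how small a difference can be seen, above all for miR-342-5p, with its high Ct.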
